A study of Mus musculus with 8 samples.

Results

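Maoa, Maob, Slc22a3, Slc29a4, Slc18a2 and Ddc are 6 of the 32285 genes counted in nuclei of the mouse striatum. They are named genes that make, store, take up or break down monoamines. The rule lists them by name and sets no threshold on a measured value, but the list was drawn up with earlier results of these data known. The nuclei came from frozen striatum of 32 mice aged 12 weeks, 4 mice of each of 8 inbred strains. The strains were A/J, C57BL/6 (given as 6J in the design text and as 6NJ in the deposited table), 129S1/SvImJ, NOD/ShiLtJ, NZO/HlLtJ, CAST/EiJ, PWK/PhJ and WSB/EiJ. No strain carried a transgene or received an agent, as far as the labels say. A droplet assay read the RNA and the open chromatin of each nucleus, and each of 4 batches pooled 1 mouse of every strain. A nucleus was tied to its mouse by batch and by the strain that the submitters had called from genetic variants in its RNA and its chromatin.

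The deposited table kept 55672 nuclei in 18 named clusters, between 11826 and 15626 nuclei per batch. The median nucleus of a batch held 3232 to 4931 unique transcript counts (UMIs), and pairs of batches shared 188 to 328 cell barcodes among the kept nuclei. Levels are given as counts per 1000000 counts of a library (CPM), where a library is the sum of 1 mouse's nuclei in 1 cluster and holds at least 10 nuclei. Cluster names are the submitters', and 5 of 5 astrocyte markers, 5 of 5 macrophage and microglia markers, 5 of 5 oligodendrocyte markers and 4 of 4 endothelial markers were highest in the cluster so named. For the Drd1+ projection neuron list 3 of 5 markers were highest in Drd1+ neurons, with Tac1 higher in Drd1+ neuron_2 and Isl1 in Chat+ interneurons. For the Drd2+ list 4 of 5 were highest in Drd2+ neurons, with Sp9 higher in the Unknown cluster. Ppp1r1b, of the general projection neuron list, was highest in Unknown_2, and the precursor marker Pdgfra in fibroblasts. Of the mural markers, Rgs5 was highest elsewhere, with 1854 CPM in the endothelial cluster and 403 CPM in the mural cluster. The cluster named Unknown was highest for the neuroblast and division markers Dcx, Sox11, Top2a and Mki67, and the cluster named Unknown_2 for the choroid plexus markers Ttr, Kl, Folr1 and Clic6. Drd1 was also counted outside the Drd1+ clusters: it stood at 218.8 CPM in Drd1+ neurons and at 24.0 CPM in astrocytes, 10.96% of that level. The share was 22.8% in endothelium, 24.0% in ependyma, 31.6% in mural cells and 54.3% in Sst+ interneurons. Whether these counts are stray RNA or RNA of the nuclei themselves was not tested. The design text gives 4 male and 4 female mice to each batch, but the transcripts of 4 Y-linked genes were present in 5 of 8 mice of batch 1 and of batch 2. All 4 NOD/ShiLtJ mice held them, against 2 of 4 mice in each other strain, so no NOD/ShiLtJ mouse without them was available for comparison. Summed Y transcripts stood at 352 to 464 CPM in 18 mice and at 3.16 to 9.15 CPM in the other 14.

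Monoamines such as dopamine and serotonin are made from aromatic amino acids. Ddc, the aromatic amino acid decarboxylase, makes dopamine from DOPA and serotonin from its precursor, and Slc18a2, the vesicular monoamine transporter VMAT2, loads them into vesicles. Maoa and Maob are the monoamine oxidases of the outer mitochondrial membrane, which break monoamines down. Slc22a3 (OCT3) and Slc29a4 (PMAT) are carriers of low affinity and high capacity that clear monoamines outside the axon's own uptake systems. The dopamine of the striatum is released by axons whose cell bodies, and nuclei, lie in the midbrain.

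On the mm10 (GRCm38) build, Maoa spans 16619698 to 16687812 of chromosome X, and Maob spans 16709281 to 16817366, with 21468 bases between these neighbours. Slc22a3 lies at 12419972 to 12507704 of chromosome 17, Slc29a4 at 142692478 to 142722490 of chromosome 5, Slc18a2 at 59260878 to 59296012 of chromosome 19 and Ddc at 11814101 to 11898144 of chromosome 11. The deposited list of 291715 chromatin peaks placed 3 peaks within Maoa, 6 within Maob, 14 within Slc22a3, 7 within Slc29a4, 9 within Slc18a2 and 17 within Ddc. Promoter windows of 250 bases before to 50 bases after an annotated start, from RefSeq on GRCm38.p6, matched 5 of the 6 genes. Of 32851 such windows, 53.1% overlapped a peak, and the windows of Maoa, Slc29a4, Slc18a2 and both starts of Ddc did so while that of Slc22a3 did not. The windows below are those of 4 genes whose levels differed between cell types or strains, on the gene's strand, 5′ to 3′. Maob, which also differed, had no window in the table used here. Capitals mark matches on either strand to 3 motifs. The GC box, GGGCGG, was in 35.7% of windows. The TATA box, searched as the letters TATAAA, was in 13.6%. The cyclic AMP response element, TGACGTCA, was in 1.79%. CACGTG (an E box, in 7.15% of windows) was searched too and matched none of them.
Maoa, chrX:16619448-16619747, plus strand: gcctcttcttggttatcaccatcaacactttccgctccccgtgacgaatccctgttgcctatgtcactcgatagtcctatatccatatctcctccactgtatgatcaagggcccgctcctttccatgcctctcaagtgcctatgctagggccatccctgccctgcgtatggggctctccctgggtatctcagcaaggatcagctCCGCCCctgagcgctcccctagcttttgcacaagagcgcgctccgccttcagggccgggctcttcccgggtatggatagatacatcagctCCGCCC
Slc22a3, chr17:12507655-12507954, minus strand: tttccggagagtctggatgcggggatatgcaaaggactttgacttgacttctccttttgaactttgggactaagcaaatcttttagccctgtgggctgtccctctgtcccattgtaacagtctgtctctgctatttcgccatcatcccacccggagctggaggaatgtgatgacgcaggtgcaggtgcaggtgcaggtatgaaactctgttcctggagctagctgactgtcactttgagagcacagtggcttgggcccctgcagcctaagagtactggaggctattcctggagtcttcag
Slc18a2, chr19:59260628-59260927, plus strand: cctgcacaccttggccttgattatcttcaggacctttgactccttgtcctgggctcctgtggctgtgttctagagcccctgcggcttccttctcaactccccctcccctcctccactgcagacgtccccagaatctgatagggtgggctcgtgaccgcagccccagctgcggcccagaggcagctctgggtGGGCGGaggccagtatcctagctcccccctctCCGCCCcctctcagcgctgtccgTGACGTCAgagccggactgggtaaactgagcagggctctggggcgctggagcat
Ddc, upstream start, chr11:11898095-11898394, minus strand: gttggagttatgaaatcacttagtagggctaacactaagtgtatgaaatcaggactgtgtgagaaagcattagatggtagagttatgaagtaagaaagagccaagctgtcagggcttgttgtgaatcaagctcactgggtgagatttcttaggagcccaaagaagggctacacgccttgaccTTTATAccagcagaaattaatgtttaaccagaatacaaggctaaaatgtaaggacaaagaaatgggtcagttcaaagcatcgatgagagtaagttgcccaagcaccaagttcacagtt
Ddc, downstream start, chr11:11890359-11890658, minus strand: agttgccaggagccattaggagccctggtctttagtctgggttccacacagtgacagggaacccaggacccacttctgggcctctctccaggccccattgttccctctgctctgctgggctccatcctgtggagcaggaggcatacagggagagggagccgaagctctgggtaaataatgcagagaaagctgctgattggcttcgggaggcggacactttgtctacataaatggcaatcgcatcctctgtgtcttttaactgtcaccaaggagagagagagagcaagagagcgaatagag
The Maoa window held 2 GC boxes, and the Slc18a2 window held 2 GC boxes and 1 cyclic AMP response element. The upstream Ddc window held 1 TATA box, and neither the downstream Ddc window nor the Slc22a3 window held any of the 4 motifs. A match is a description of letters, not of a bound site. The Slc29a4 window, not printed, held 9 GC boxes and 1 TATA box with bases 70% GC.

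Among the 14 clusters with libraries from at least 10 mice, Maoa and Ddc were highest in endothelium and Maob in astrocytes. Slc22a3 was highest in projection neurons, and Slc29a4, at low levels, in the Unknown cluster. Slc18a2 had no clear highest cluster: the Unknown cluster had the highest mean, but in the mice with both libraries it exceeded Nxph1+ interneurons, the next in order, in 9 of 26 (mean difference -2.05 CPM), and the pooled level was 16.7 CPM against 18.3 CPM in Nxph1+ interneurons. In the pooled nuclei of small clusters, Maob (83.9 CPM) and Slc29a4 (44.4 CPM) were higher in Unknown_2, and Slc18a2 (19.7 CPM from 5 counts) in fibroblasts. The plot of levels by cluster shows each gene on its own scale. Levels of different genes are not compared here, since counts were not scaled by transcript length. Neighbouring clusters in each gene's order were compared over mice that had both libraries, by a two-sided paired sign-flip permutation test with Benjamini-Hochberg adjustment over 77 pairs. Of these 77 neighbouring pairs, 8 passed an adjusted p of 0.05.

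**Figure D1:**
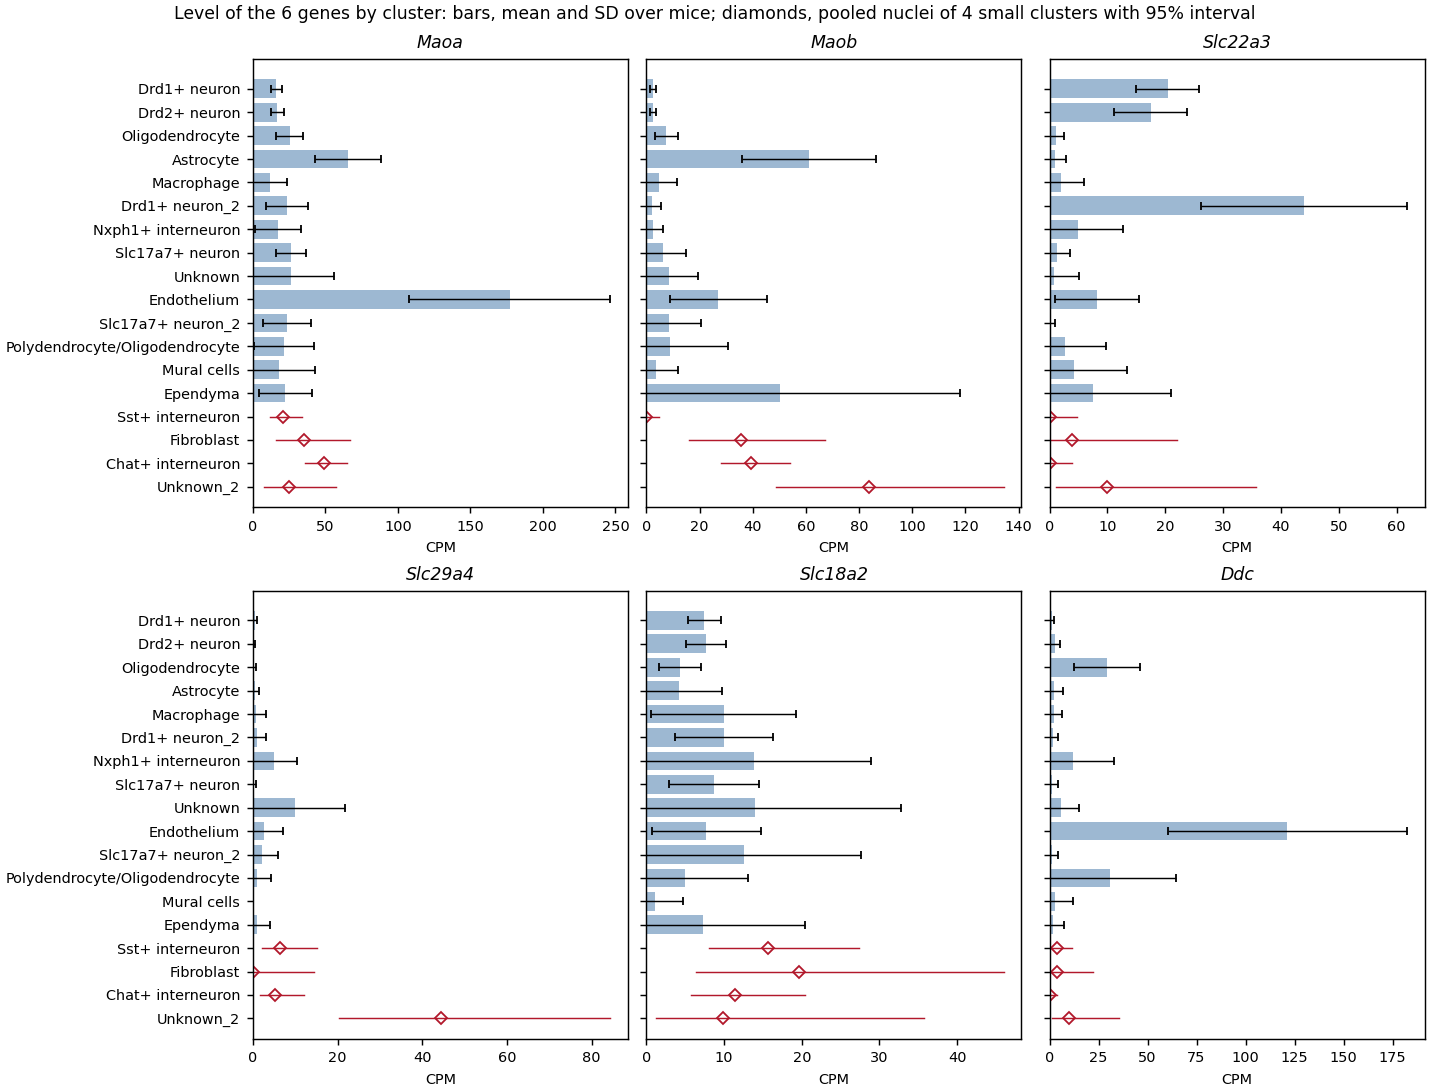
Levels of the 6 genes (CPM, horizontal axes, each panel on its own scale) in 18 clusters. Bars are means over mice with the SD, cut at 0, for the 14 clusters with libraries from at least 10 mice; diamonds are the pooled nuclei of 4 small clusters with a 95% exact binomial interval. Maoa and Ddc reach 177 and 121 CPM in endothelium, Maob 61.3 CPM in astrocytes and Slc22a3 43.9 CPM in the Drd1+ neuron_2 cluster.

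Maoa, the oxidase that prefers serotonin and noradrenaline, was detected in every cluster. It stood at 177 CPM ± 69.2 (SD, n = 29 mice) in endothelium and at 65.9 CPM ± 22.8 (SD, n = 32) in astrocytes. Endothelium was higher in 27 of 29 mice (adjusted permutation p = 0.000513). Astrocytes in turn exceeded Slc17a7+ neurons, excitatory cells at 26.4 CPM ± 10.1 (SD, n = 20), in 19 of 20 mice (adjusted permutation p = 0.000513). From there down the order was shallow: the other 11 clusters with at least 10 mice lay between 11.8 CPM in macrophages and 26.4 CPM in the Unknown cluster, and no neighbouring pair among them passed. Drd1+ neurons held 16.2 CPM ± 3.75 and Drd2+ neurons 16.9 CPM ± 4.34 (SD, n = 32 each). A UMI of Maoa was found in 40.5% of endothelial, 12.2% of astrocyte and 9.07% of Drd1+ neuron nuclei, whose median depths were 3821, 2220.5 and 6505 UMIs. With every nucleus thinned to 1000 UMIs these shares were 16.9%, 6.00% and 1.57%. Chat+ interneurons, the cholinergic cells, had 48.8 CPM of Maoa from 47 counts in 120 pooled nuclei, and a UMI in 26.7% of them.

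Maob, the oxidase known for astrocytes and for serotonin neurons, was highest in astrocytes at 61.3 CPM ± 25.1 (SD, n = 32). Ependyma followed at 50.3 CPM ± 67.6 (SD, n = 12) and endothelium at 27.0 CPM ± 18.2 (SD, n = 29). In oligodendrocytes Maob stood at 7.56 CPM, in Drd1+ neurons at 2.50 CPM ± 1.27 and in Drd2+ neurons at 2.37 CPM ± 1.11 (n = 32 each). No neighbouring pair of clusters in the Maob order passed the test. At equal depth of 1000 UMIs, 6.52% of astrocyte nuclei and 0.273% of Drd1+ neuron nuclei held a Maob UMI, against 12.0% and 1.71% before thinning. Pooled nuclei of Unknown_2 held 83.9 CPM of Maob from 17 counts, and Chat+ interneurons 39.4 CPM from 38 counts. Sst+ interneurons had 0 counts, where 3 counts would have been 3.92 CPM. The oxidases were seen together in 75 of 4748 astrocyte nuclei, where 579 held Maoa and 568 Maob. In Chat+ interneurons 11 of 120 nuclei held both.

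Slc22a3, the corticosterone-sensitive carrier OCT3, was highest in projection neurons. Its level was 43.9 CPM ± 17.8 (SD, n = 32) in the Drd1+ neuron_2 cluster, in which Otof, Casz1, Col11a1, Pcdh8 and Tshz1, markers of eccentric projection neurons, were highest. Drd1+ neurons followed at 20.4 CPM ± 5.45 and Drd2+ neurons at 17.5 CPM ± 6.34 (SD, n = 32 each). Drd1+ neuron_2 exceeded Drd1+ neurons in 30 of 32 mice (adjusted permutation p = 0.000513), and Drd1+ exceeded Drd2+ neurons in 23 of 32 mice (adjusted permutation p = 0.00968). Drd2+ neurons exceeded endothelium, at 8.25 CPM ± 7.29, in 25 of 29 mice (adjusted permutation p = 0.000924). Below endothelium no neighbouring pair passed. Pooled astrocytes held 5.25% and pooled oligodendrocytes 5.54% of the Slc22a3 level of Drd1+ neurons, less than the 10.96% and 9.62% found for Drd1 itself. The part of RNA from outside the nucleus in these levels was not tested. Chat+ and Sst+ interneurons had 0 counts, with 3 counts corresponding to 3.11 and 3.92 CPM. UMIs were found in 17.1% of Drd1+ neuron_2, 11.5% of Drd1+ neuron and 0.253% of astrocyte nuclei, and after thinning in 3.82%, 2.02% and 0.0432%.

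Slc29a4, the carrier PMAT, was sparse in the striatum. Drd1+ neurons, with 104026467 counts in all, held 52 counts of Slc29a4 (0.52 CPM ± 0.43, SD, n = 32), and Drd2+ neurons held 14. The highest mean over mice was 10.0 CPM ± 11.6 (SD, n = 26) in the Unknown cluster, followed by 4.98 CPM ± 5.50 (SD, n = 32) in Nxph1+ interneurons. In 12 of the 26 mice the Unknown library had 0 counts, and no neighbouring pair in the order passed the test. Unknown_2, the cluster with choroid plexus markers, held 44.4 CPM from 9 counts in 57 nuclei (95% exact binomial interval 20.3 to 84.3 CPM, counting error only). Mural cells and fibroblasts had 0 counts, with 3 counts corresponding to 2.28 and 11.8 CPM. Slc29a4 passed the filter on low counts in none of the 9 clusters tested for strain. A fit without the filter called it in none of them, and its lowest unadjusted p was 0.171, in Drd1+ neurons (edgeR adjusted p = 0.339).

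Slc18a2, the vesicular transporter, was spread thinly over many clusters. The 2 highest means over mice were 14.0 CPM ± 18.8 (SD, n = 26) in the Unknown cluster and 13.8 CPM ± 15.1 (SD, n = 32) in Nxph1+ interneurons. Drd2+ neurons stood at 7.67 CPM ± 2.53 and Drd1+ neurons at 7.48 CPM ± 2.18 (SD, n = 32 each). Oligodendrocytes had 4.37 CPM and astrocytes 4.26 CPM. Astrocytes and mural cells, at 1.10 CPM, were the only neighbouring pair that passed (15 of 20 mice, adjusted permutation p = 0.0254). Of the 20 mural libraries 18 had 0 counts of Slc18a2, and the median library held 43567.5 counts in all. Pooled mural nuclei held 3.04 CPM from 4 counts (exact binomial interval 0.828 to 7.78 CPM). That interval includes the 4.10 CPM of pooled astrocytes. The test cannot tell a lower level from shallow libraries here, so no step is read from it. The Slc18a2 level in pooled astrocytes was 55.2% of that in Drd1+ neurons, above the 10.96% of Drd1. No other gene overlaps Slc18a2, but Pdzd8 lies 71 bases from it, and the part of Pdzd8 reads in these counts was not tested.

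Ddc, the decarboxylase, was highest in endothelium at 121 CPM ± 60.9 (SD, n = 29). The Polydendrocyte/Oligodendrocyte cluster, with 30.9 CPM ± 33.6 (SD, n = 27), and oligodendrocytes, with 29.2 CPM ± 16.8 (SD, n = 32), followed. Endothelium exceeded the former in 22 of 25 mice (adjusted permutation p = 0.000924), and oligodendrocytes exceeded Nxph1+ interneurons, at 12.1 CPM ± 20.7, in 27 of 32 mice (adjusted permutation p = 0.00128). Projection neurons were far lower, at 2.88 CPM ± 2.51 in Drd2+ and 1.32 CPM ± 1.20 in Drd1+ neurons (SD, n = 32 each). A Ddc UMI was present in 27.97% of endothelial, 4.48% of oligodendrocyte and 0.799% of Drd1+ neuron nuclei, and after thinning in 10.3%, 2.83% and 0.117%. The gene 1700042O10Rik overlaps Ddc, and the kit's use of strand in counting is not given in the sources used here, so their reads may not be separable. The same holds for Gm51937, which also overlaps Ddc, for Gm3192 and C030013G03Rik, which overlap Slc22a3, and for Gm40352, which overlaps Slc29a4.

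Maoa and Ddc, both highest in endothelium, were also counted within single nuclei of that cluster. Of 851 endothelial nuclei, 345 held Maoa, 238 held Ddc and 158 held both. The overlap to be expected from these shares and from depth was not worked out, so nothing more is read from it. The cluster was uneven: 422 nuclei held UMIs of both the endothelial and the mural list (median 4883.5 UMIs) and 425 of the endothelial list alone (median 1661 UMIs). The mural list included Rgs5, at 1854 CPM in this cluster and 403 CPM in the mural cluster. The split therefore does not set mural cells apart. In the first set Maoa stood at 243 CPM and Ddc at 166 CPM, and in the second at 88.9 and 48.7 CPM. Slc22a3 ran the other way, with 3.01 CPM (8 counts) in the first and 16.2 CPM (25 counts) in the second. Depth and UMIs of the mural list, Rgs5 among them, moved with these levels, and their part in the result was not tested.

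Synthesis and storage genes were next counted within single nuclei. Over all 55672 nuclei, 79 held a UMI of Th, the tyrosine hydroxylase of catecholamine synthesis, 1237 of Ddc and 1794 of Slc18a2. Slc18a2 and Ddc met in 30 nuclei, Th and Slc18a2 in 5 and Th and Ddc in 1, and that Drd2+ neuron nucleus held all 3. Of the other dopamine neuron markers, Slc6a3, the dopamine transporter, stood at 0.237 CPM or less in every cluster and Foxa2 had 0 counts. Nr4a2, a transcription factor also made by cortical neurons, reached 44.4 CPM in the Slc17a7+ neuron_2 cluster. The Nxph1+ interneurons held 32 of the nuclei with Th, 41 with Ddc and 71 with Slc18a2, with 2 holding Slc18a2 and Ddc, 2 holding Th and Slc18a2 and 0 holding Th and Ddc. With so few nuclei detected for each gene, nothing is read from these counts of nuclei with both. The nuclei with Ddc differed from the others of the cluster in its own marker: Nxph1 stood at 215 CPM in those 41 and at 2826 CPM in the other 1181. In the 32 nuclei with Th, Nxph1 stood at 3356 CPM, and in the 71 with Slc18a2 at 1152 CPM. Of the 41 nuclei with Ddc, 14 came from NZO/HlLtJ mice, which gave 305 nuclei of the cluster (4.59%), and 13 from PWK/PhJ mice, which gave 147 (8.84%). The other strains gave 1 to 3 each, of 105 to 171 nuclei (0.952% to 2.83%). The median UMI count was 5925 with Ddc and 4194 without. Ddc lay below the filter in this cluster, and without the filter its strain term was not called (edgeR adjusted p = 0.473, unadjusted p = 0.0318).

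As a description, the genes whose levels over the 18 clusters were most like each member were named by Pearson correlation of log2(CPM + 1) among 15711 genes. All points share the same libraries, and small clusters weigh as much as large ones. Slc22a3 ran with Actn2 (r = 0.90), Rxrg (r = 0.88) and Sptb (r = 0.88), and Maoa with Gm10030 (r = 0.83), Car5a (r = 0.82) and the endothelial transcription factor Sox7 (r = 0.81). For Maob the nearest were Nudt22 (r = 0.89), Ifrd1 (r = 0.87) and Ctnna1 (r = 0.86), all highest in Unknown_2. Ddc was followed by its overlapping neighbour 1700042O10Rik (r = 0.89), Med21 (r = 0.88) and Arl2bp (r = 0.81). Slc29a4 came closest to Nup54 (r = 0.87), Esr2 (r = 0.87) and Gars (r = 0.85), and Slc18a2 to Wdr5 (r = 0.90), Mrpl1 (r = 0.87) and Dgat1 (r = 0.87).

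Strains were then compared within each cluster, asking which members varied with genetic background. The strain term, with 7 degrees of freedom and batch as a block, was tested by edgeR's quasi-likelihood test on all genes that passed the filter on low counts, in the 9 clusters with at least 3 mice of every strain. Adjusted p is Benjamini-Hochberg over all of those genes. Of 54 combinations of member and cluster, 15 passed the filter and 7 of these were called at an adjusted p of 0.05. Strain differences were common in these data, and the members' counts are read against that. In Drd1+ neurons 2 of 4 members were called, against 61.7% of all genes, and in Drd2+ neurons 4 of 4 members (all of Ddc, Slc18a2, Maoa and Slc22a3) against 55.9%. Ddc passed the filter in Drd2+ neurons mostly through PWK/PhJ libraries, the strain in which it was then called high, so nothing is read from its part in that count. In astrocytes 1 of 2 was called, against 21.5%. In oligodendrocytes 0 of 2 were called against 34.8%, in Drd1+ neuron_2 0 of 1 against 17.3%, and in endothelium 0 of 2 against 3.23%. None of the 6 passed the filter in macrophages, Nxph1+ interneurons or the Polydendrocyte/Oligodendrocyte cluster, where 24.8%, 1.53% and 1.24% of genes were called. Among the 39 combinations below the filter, a fit without it called 1, Ddc in Drd1+ neurons (edgeR adjusted p = 0.0451), and 7 had an unadjusted p under 0.05. The shares of all genes called in that fit are not given here, so nothing is read from these counts.

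In the same fit each strain was compared with the average of the remaining 7. Of 120 such contrasts of members, 12 were called. Over all genes and 8 strains, Drd1+ neurons had 20.4% of contrasts called and Drd2+ neurons 17.7%. Oligodendrocytes had 10.5%, astrocytes 4.95%, Drd1+ neuron_2 3.7% and endothelium 0.604%. The 28 strain pairs called 20.1%, 17.6%, 10.5%, 4.84%, 3.46% and 0.557% of all tests in the same clusters. No 2 strains that stood next to each other in any member's order differed in the test of their pair. The plot of strain contrasts shows all 120.

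**Figure D2:**
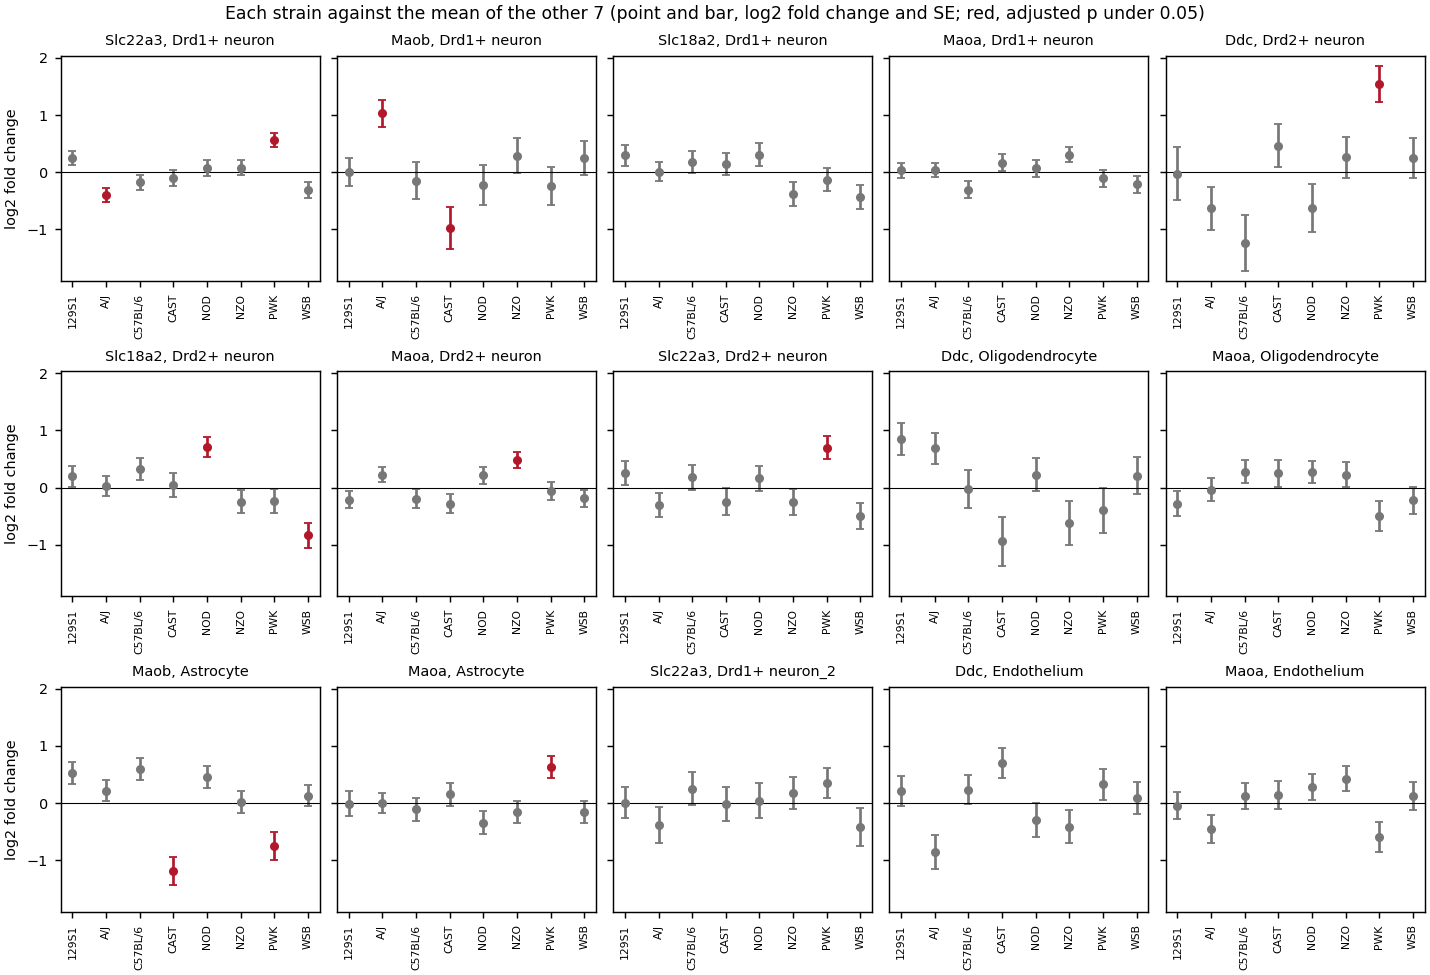
Log2 fold change of each strain against the mean of the other 7 (vertical axis, point and bar, estimate and SE) for the 15 tested combinations of gene and cluster; red marks an adjusted p under 0.05. The 12 red points include Maob in CAST/EiJ astrocytes at -1.19 and Ddc in PWK/PhJ Drd2+ neurons at 1.54.

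Maob was called for strain in astrocytes and in Drd1+ neurons, and Maoa in Drd2+ neurons. In astrocytes, Maob in the 4 CAST/EiJ mice stood at 33.2, 25.7, 26.1 and 27.3 CPM, and in the 4 PWK/PhJ mice at 49.1, 40.0, 10.0 and 30.1 CPM. In the other 6 strains every mouse lay between 45.7 and 116 CPM, so all CAST/EiJ mice were below every mouse of those 6, and 1 PWK/PhJ mouse overlapped them. C57BL/6 was highest at 83.2 CPM ± 19.5 (SD, n = 4), against 28.1 CPM ± 3.47 in CAST/EiJ and 32.3 CPM ± 16.8 in PWK/PhJ. The strain term was called (edgeR adjusted p = 2.8e-05), and fitted strain means spanned 1.56 on the log2 scale. CAST/EiJ was lower than the other 7 by a log2 fold change of -1.19 ± 0.25 (SE, edgeR adjusted p = 0.000241), below their mean in 4 of 4 batches and the lowest strain in 3, where 4.89% of genes were called lower. PWK/PhJ was lower by -0.76 ± 0.24 (SE, edgeR adjusted p = 0.0331), where 4.17% of genes were called lower. PWK/PhJ was below the mean of the other 7 in 4 of 4 batches and the lowest strain in 1. That PWK/PhJ call was lost without any one of the 4 batches (edgeR adjusted p between 0.0586 and 0.165). The batch 3 values of CAST/EiJ and PWK/PhJ rest on 1 count each. Maob is on chromosome X, and all NOD/ShiLtJ mice held Y transcripts. Its strain term was still called with a term for those transcripts (edgeR adjusted p = 3.4e-05) and without the NOD/ShiLtJ mice (edgeR adjusted p = 2.92e-05). Of 28 strain pairs, 9 differed, 6 of them CAST/EiJ against C57BL/6, 129S1/SvImJ, NOD/ShiLtJ, A/J, NZO/HlLtJ and WSB/EiJ, and 3 PWK/PhJ against C57BL/6, 129S1/SvImJ and NOD/ShiLtJ.

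Astrocyte Maoa, encoded next to Maob, was not low in PWK/PhJ or CAST/EiJ. Whether the strain differences of the 2 genes differ was not tested. PWK/PhJ mice had 63.8, 102, 150 and 93.5 CPM, a mean of 102 CPM ± 35.8 (SD, n = 4), and CAST/EiJ followed at 72.4 CPM ± 16.0. The other 6 strains had means of 52.5 to 66.5 CPM. The strain term was not called (edgeR adjusted p = 0.208), while the contrast of PWK/PhJ with the other 7 was, at 0.63 ± 0.19 (log2, SE, edgeR adjusted p = 0.0233), where 4.78% of genes were called higher. That call was lost without batch 2, 3 or 4 (edgeR adjusted p = 0.137, 0.147 and 0.0541). Among pairs, 1 of 28 differed, PWK/PhJ from NOD/ShiLtJ. Maoa is on chromosome X too, and all NOD/ShiLtJ mice held Y transcripts. With a term for those transcripts the strain term was not called (edgeR adjusted p = 0.266). Nor was it without the NOD/ShiLtJ mice (edgeR adjusted p = 0.306), where the span was 0.69 against 0.85 with them. The ratio of Maoa to Maob counts within a mouse's astrocytes had a median of 2.80 in CAST/EiJ (1.61 to 3.33) and of 2.83 in PWK/PhJ (1.30 to 15). In the other 6 strains the median was 0.646 to 0.989. The highest mouse of those 6 was a 129S1/SvImJ mouse at 1.55, above the lowest PWK/PhJ mouse. The PWK/PhJ value of 15 was 15 Maoa counts over 1 Maob count. CAST/EiJ and PWK/PhJ had been named for low Maob in the same counts, so the ratio is description and adds no support. Summed astrocyte markers stood at 9385 to 11924 CPM in CAST/EiJ, at 8631 to 9638 CPM in PWK/PhJ and at 8414 to 11358 CPM in the other 6 strains, ranges that overlap.

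**Figure D3:**
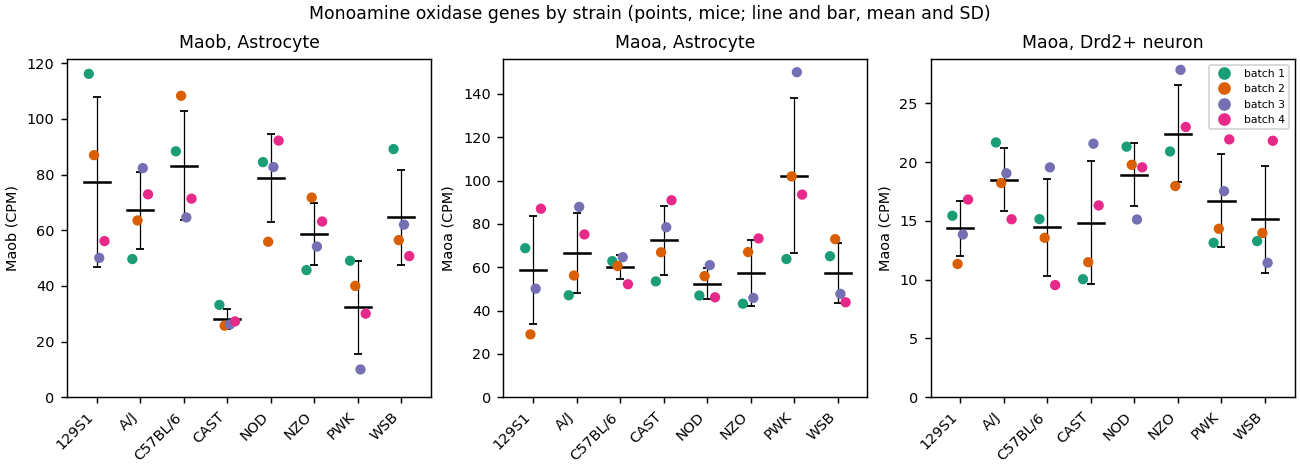
Maoa and Maob (CPM, vertical axes) by strain in the clusters named above each panel; points are mice coloured by batch, lines and bars the mean and SD. In astrocytes the 4 CAST/EiJ mice lie between 25.7 and 33.2 CPM of Maob, below every mouse of 6 other strains.

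In Drd1+ neurons Maob was low and still differed between strains (edgeR adjusted p = 0.00772, span 1.75). A/J mice had 6.14, 4.78, 3.54 and 2.98 CPM and CAST/EiJ mice 0.763, 2.47, 1.09 and 0.818 CPM, from 10 to 45 and from 2 to 8 counts. These 2 strains did not overlap, but A/J overlapped 5 of the other strains. A/J stood above the other 7 by 1.03 ± 0.24 (log2, SE, edgeR adjusted p = 0.00119), with 10.6% of genes called higher. CAST/EiJ stood below by -0.98 ± 0.37 (log2, SE, edgeR adjusted p = 0.0393), with 15.9% of genes called lower. Without batch 1 the strain term of Maob was not called (edgeR adjusted p = 0.208), nor was A/J (edgeR adjusted p = 0.0603) or CAST/EiJ (edgeR adjusted p = 0.210). The CAST/EiJ contrast was also lost without batch 3 or 4, and without batch as a block (edgeR adjusted p = 0.0767). Of 28 pairs 3 differed, A/J from CAST/EiJ, PWK/PhJ and NOD/ShiLtJ. The strain term was still called with a term for Y transcripts (edgeR adjusted p = 0.00363) and without the NOD/ShiLtJ mice (edgeR adjusted p = 0.00992).

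Maoa in Drd2+ neurons was highest in NZO/HlLtJ, whose mice had 20.9, 18.0, 27.9 and 23.0 CPM. Their mean was 22.4 CPM ± 4.16 (SD, n = 4), and the means of the other 7 strains ran from 14.4 to 18.9 CPM. The strain term was called (edgeR adjusted p = 0.0188, span 0.67), and NZO/HlLtJ exceeded the other 7 by 0.49 ± 0.14 (log2, SE, edgeR adjusted p = 0.0106), where 10.8% of genes were called higher. NZO/HlLtJ was above the mean of the other 7 in 4 of 4 batches and the highest strain in 2. Its mice overlapped those of 6 other strains. Leaving out batch 1 or batch 2 ended the call of the strain term (edgeR adjusted p = 0.135 and 0.176), and leaving out batch 3 that of NZO/HlLtJ (edgeR adjusted p = 0.0943). Of the 28 pairs 4 differed, NZO/HlLtJ from 129S1/SvImJ, C57BL/6, CAST/EiJ and WSB/EiJ. In Drd1+ neurons NZO/HlLtJ was again the highest, at 19.2 CPM ± 3.15, but the strain term was not called (edgeR adjusted p = 0.170). It was 0.0331 without batch 4 and 0.0506 with a term for Y transcripts. Only 1 pair differed there, NZO/HlLtJ from C57BL/6. In oligodendrocytes (edgeR adjusted p = 0.310, and 0.106 with a term for Y transcripts) and endothelium (edgeR adjusted p = 0.476) Maoa was not called and 0 of 28 pairs differed.

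Slc22a3 was highest in PWK/PhJ in both main types of projection neuron. In Drd1+ neurons the PWK/PhJ mice had 33.1, 26.3, 28.8 and 28.6 CPM and the A/J mice 12.8, 15.9, 13.8 and 18.4 CPM. All 4 PWK/PhJ mice lay above every mouse of the other strains but 1 129S1/SvImJ mouse at 31.8 CPM. The strain means were 29.2 CPM ± 2.84 for PWK/PhJ and 15.2 CPM ± 2.49 for A/J (SD, n = 4 each), and the strain term was called (edgeR adjusted p = 0.000387, span 0.85). PWK/PhJ exceeded the other 7 by 0.57 ± 0.12 (log2, SE, edgeR adjusted p = 0.000212) and was the highest strain in 4 of 4 batches, where 17% of genes were called higher. A/J was lower by -0.40 ± 0.13 (log2, SE, edgeR adjusted p = 0.0228), where 6.66% of genes were called lower. A/J was below the mean of the other 7 in 3 of 4 batches and the lowest strain in 2. The A/J call was lost without batch 1, 2 or 3 (edgeR adjusted p = 0.201, 0.102 and 0.110) and without batch as a block (edgeR adjusted p = 0.0598). Of 28 pairs 6 differed: PWK/PhJ from A/J, WSB/EiJ, C57BL/6, CAST/EiJ and NZO/HlLtJ, and 129S1/SvImJ from A/J.

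In Drd2+ neurons the PWK/PhJ mice had 30.0, 31.5, 30.7 and 17.0 CPM of Slc22a3, and WSB/EiJ mice, the lowest, 14.4, 11.6, 15.2 and 11.7 CPM. The range of the PWK/PhJ mice overlapped 5 of the other strains. The strain term was called (edgeR adjusted p = 0.0365, span 1.05), but not without batch 1, 2 or 3 (edgeR adjusted p = 0.108, 0.186 and 0.0870). PWK/PhJ stood above the other 7 by 0.70 ± 0.20 (log2, SE, edgeR adjusted p = 0.00955), where 15.2% of genes were called higher. PWK/PhJ was above the mean of the other 7 in 4 of 4 batches and the highest strain in 2. That contrast missed the threshold without batch 2 (edgeR adjusted p = 0.0508). Of 28 pairs 4 differed, all of them PWK/PhJ against A/J, CAST/EiJ, NZO/HlLtJ or WSB/EiJ. In the Drd1+ neuron_2 cluster, where Slc22a3 was highest, PWK/PhJ again had the highest mean, 57.9 CPM ± 22.05, and WSB/EiJ the lowest, 33.6 CPM ± 16.8 (SD, n = 4 each). There the strain term was not called (edgeR adjusted p = 0.775), and 0 of 28 pairs differed.

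**Figure D4:**
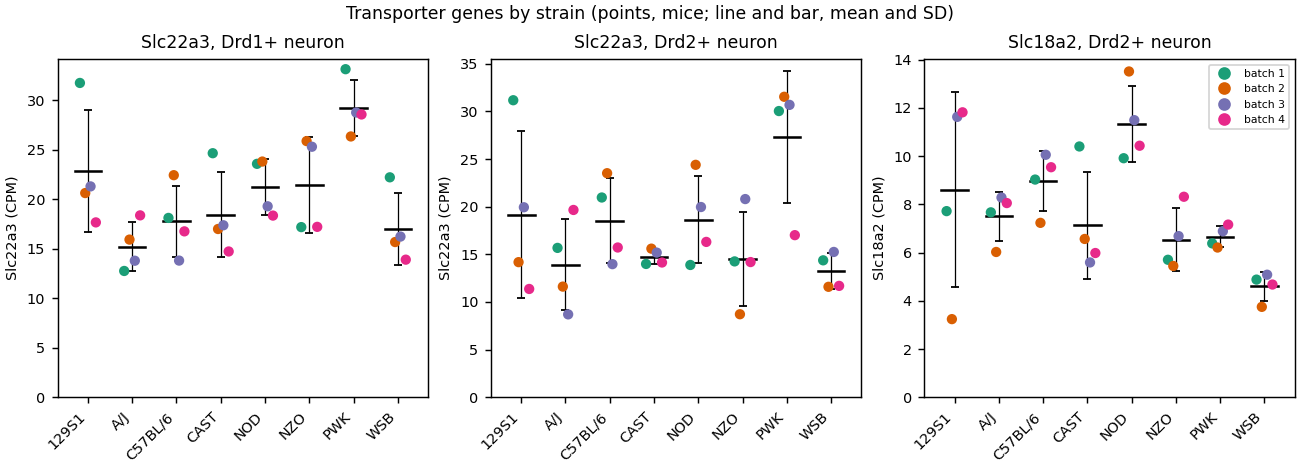
Slc22a3 and Slc18a2 (CPM, vertical axes) by strain in the clusters named above each panel; points are mice coloured by batch, lines and bars the mean and SD. In Drd1+ neurons the PWK/PhJ mice lie between 26.3 and 33.1 CPM of Slc22a3, and in Drd2+ neurons the WSB/EiJ mice lie between 3.75 and 5.08 CPM of Slc18a2.

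Slc18a2 differed between strains in Drd2+ neurons. NOD/ShiLtJ mice had 9.92, 13.5, 11.5 and 10.4 CPM and WSB/EiJ mice 4.88, 3.75, 5.08 and 4.68 CPM. All WSB/EiJ mice lay below every mouse of the other strains except 1 129S1/SvImJ mouse at 3.24 CPM. The means were 11.3 CPM ± 1.59 in NOD/ShiLtJ and 4.60 CPM ± 0.589 in WSB/EiJ (SD, n = 4 each), and the strain term was called (edgeR adjusted p = 0.00114, span 1.35). WSB/EiJ was below the other 7 by -0.84 ± 0.21 (log2, SE, edgeR adjusted p = 0.00369), where 6.77% of genes were called lower. WSB/EiJ was below the mean of the other 7 in 4 of 4 batches and the lowest strain in 3. NOD/ShiLtJ was above by 0.71 ± 0.17 (log2, SE, edgeR adjusted p = 0.00339), where 7.58% of genes were called higher. NOD/ShiLtJ was above the mean of the other 7 in 4 of 4 batches and the highest strain in 1. All NOD/ShiLtJ mice held Y transcripts. With a term for those transcripts the NOD/ShiLtJ contrast was 0.72 (edgeR adjusted p = 0.00605), and without the NOD/ShiLtJ mice the strain term of Slc18a2 was still called (edgeR adjusted p = 0.0224, span 1.02). Leaving out batch 2 ended the NOD/ShiLtJ call (0.46, edgeR adjusted p = 0.168). Of 28 pairs 7 differed: WSB/EiJ from NOD/ShiLtJ, C57BL/6, 129S1/SvImJ, A/J and CAST/EiJ, and NOD/ShiLtJ from PWK/PhJ and NZO/HlLtJ. In Drd1+ neurons the same 2 strains were at the ends, NOD/ShiLtJ at 8.92 CPM ± 2.62 and WSB/EiJ at 5.38 CPM ± 2.71, but the strain term was not called (edgeR adjusted p = 0.153) and 0 of 28 pairs differed.

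Ddc in Drd2+ neurons was highest in PWK/PhJ, with mice at 1.50, 4.78, 8.77 and 13.4 CPM from 4, 10, 14 and 30 counts. The highest mouse of the other 7 strains had 4.34 CPM, so 3 of 4 PWK/PhJ mice were above all of them and the batch 1 mouse was not. The mean was 7.12 CPM ± 5.15 in PWK/PhJ and 1.14 CPM ± 0.827 in C57BL/6, the lowest (SD, n = 4 each). The strain term was called (edgeR adjusted p = 0.00103, span 2.43), and PWK/PhJ stood above the other 7 by 1.54 ± 0.31 (log2, SE, edgeR adjusted p = 0.000101), where 15.2% of genes were called higher. Ddc passed the filter on low counts here mostly through PWK/PhJ libraries, the strain then called high, so these calls serve as description only. Without the filter, on the same counts, the strain term had an edgeR adjusted p of 1.5e-06 (span 2.40). The share of all genes called in that fit is not given here, so it adds no support. Over the alternatives the PWK/PhJ contrast ran from 1.02, without batch 4 (edgeR adjusted p = 0.0440), to 2.01, without batch 1. Of 28 pairs 6 differed, all of them PWK/PhJ against A/J, C57BL/6, NOD/ShiLtJ, 129S1/SvImJ, NZO/HlLtJ or WSB/EiJ. The nuclei with a Ddc UMI numbered 3 of 450, 8 of 367, 10 of 361 and 23 of 378 in the Drd2+ neurons of the 4 PWK/PhJ mice. Oligodendrocyte markers moved with this result: the sum of 5 of 5 markers stood at 1424 to 1573 CPM in the Drd2+ neuron libraries of PWK/PhJ mice and at 1016 to 1404 CPM in those of the other 7 strains. Endothelial markers, 4 of 4, did not, with 10.6 to 20.1 CPM in PWK/PhJ and 5.80 to 27.1 CPM in the others. The part of oligodendrocyte RNA in the result was not tested.

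Ddc was more abundant in oligodendrocytes than in neurons of the Drd2+ cluster. In oligodendrocytes the 129S1/SvImJ mice had 27.1, 14.2, 77.0 and 58.6 CPM and the CAST/EiJ mice 22.7, 11.6, 5.17 and 12.2 CPM, with PWK/PhJ mice at 8.57, 8.77, 60.4 and 35.5 CPM. Batches 1 and 2 were lower than batches 3 and 4 in both 129S1/SvImJ and PWK/PhJ. The strain term missed the threshold (edgeR adjusted p = 0.0558, span 1.56). It was called without the filter (edgeR adjusted p = 4.75e-08), without batch 1 (0.00358) or batch 3 (0.0489), by DESeq2 (0.0104) and without the NOD/ShiLtJ mice (0.0199). The shares of all genes called in these alternatives are not given here. Of 28 pairs 2 differed, CAST/EiJ from 129S1/SvImJ and from A/J. In endothelium Ddc ran from 205 CPM ± 66.8 in CAST/EiJ (SD, n = 3) to 79.5 CPM ± 39.2 in A/J (SD, n = 3). The strain term was not called there (edgeR adjusted p = 0.237) while 1 of 28 pairs differed, A/J from CAST/EiJ. Whether the strain differences of Ddc in oligodendrocytes differ from those in Drd2+ neurons or in endothelium was not tested.

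**Figure D5:**
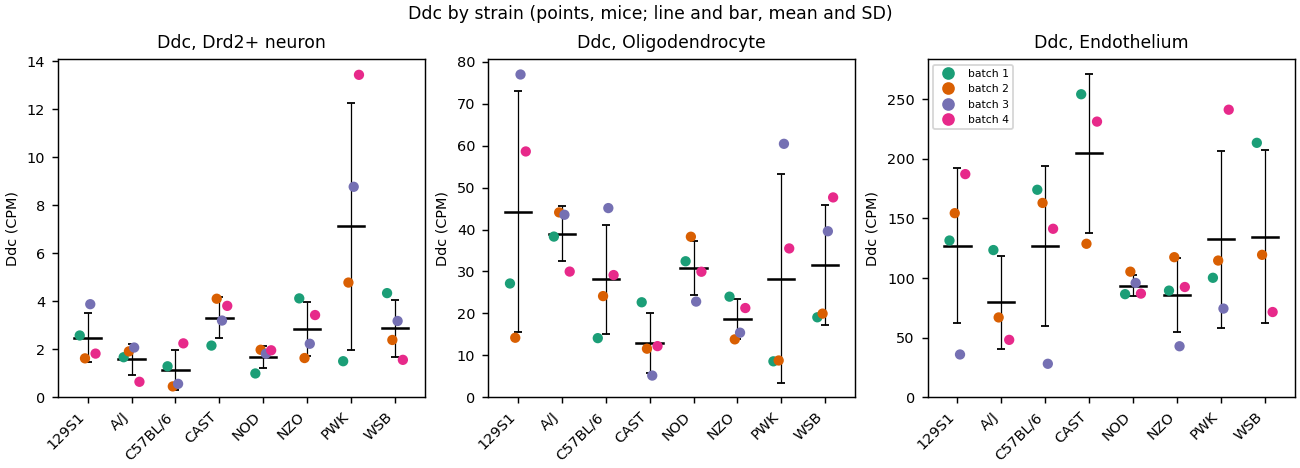
Ddc (CPM, vertical axes) by strain in Drd2+ neurons, oligodendrocytes and endothelium; points are mice coloured by batch, lines and bars the mean and SD. The PWK/PhJ mice spread from 1.50 to 13.4 CPM in Drd2+ neurons, and the CAST/EiJ mice lie between 5.17 and 22.7 CPM in oligodendrocytes.

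Whether the strain differences of a gene differed between 2 cell types was tested with the strain by cluster term and the mouse as a block. A gene could pass the filter on low counts in this fit by its counts in 1 cluster of a pair, so only members that passed in both on their own are read as tests of a difference. Between Drd1+ and Drd2+ neurons these were Maoa, Slc22a3 and Slc18a2, and Maoa had the lowest p (edgeR adjusted p = 0.728, unadjusted p = 0.228), where 4.58% of all genes were called. Between Drd1+ neurons and astrocytes they were Maob (edgeR adjusted p = 0.122, unadjusted p = 0.0189) and Maoa (edgeR adjusted p = 0.346, unadjusted p = 0.0947), where 11.4% of genes were called. The strain patterns of Maob in astrocytes and in Drd1+ neurons were thus not shown to differ, nor were they shown to be alike. Maoa alone qualified between astrocytes and oligodendrocytes (edgeR adjusted p = 0.148, unadjusted p = 0.0235), where 10.9% of genes were called. It alone qualified between Drd1+ neurons and oligodendrocytes too (edgeR adjusted p = 0.544, unadjusted p = 0.284), where 16.9% were. The other members in these fits were below the filter in 1 cluster of the pair, and nothing is read from their values. They include the call that was made, of Ddc between Drd1+ neurons and oligodendrocytes (edgeR adjusted p = 0.00192), since Ddc is below the filter in Drd1+ neurons (133 counts in all). In Drd1+ neurons PWK/PhJ mice had 0.274, 2.14, 1.31 and 6.82 CPM of Ddc, and CAST/EiJ mice 1.27, 2.47, 1.09 and 1.64 CPM. That call was lost without batch 2 (edgeR adjusted p = 0.0928) or batch 4 (edgeR adjusted p = 0.0731).

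The other genes of monoamine synthesis, breakdown and transport were read from a list of 34, of which 33 were in the matrices. Over the 9 clusters 22 of 69 tests of the list were called. Drd1+ and Drd2+ neurons had 7 of 15 each, and oligodendrocytes 5 of 10. Astrocytes had 1 of 9, macrophages 1 of 6 and Drd1+ neuron_2 1 of 3. The list had 0 of 9 in endothelium, 0 of 1 in Nxph1+ interneurons and 0 of 1 in the Polydendrocyte/Oligodendrocyte cluster. The shares of all genes called in these clusters are those given above.

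Among breakdown enzymes, Aldh1a1, an aldehyde dehydrogenase that acts after the oxidases, spanned 3.62 on the log2 scale over strains in oligodendrocytes (edgeR adjusted p = 7.52e-28). It stood at 102 CPM ± 18.5 in 129S1/SvImJ, 9.71 CPM ± 2.98 in PWK/PhJ and 10.2 CPM ± 5.35 in NZO/HlLtJ (SD, n = 4 each). In astrocytes Aldh1a1 ran from 181 CPM ± 34.8 in 129S1/SvImJ to 28.3 CPM ± 9.84 in WSB/EiJ (edgeR adjusted p = 3.2e-05). Akr1b3, an aldose reductase, ran from 41.4 CPM ± 2.24 in 129S1/SvImJ to 6.78 CPM ± 3.71 in PWK/PhJ oligodendrocytes (edgeR adjusted p = 1.68e-15). Aoc2, an amine oxidase of the copper family, spanned 1.46 in Drd1+ neurons, with CAST/EiJ high and A/J low (edgeR adjusted p = 0.00162). Aldh9a1 in Drd2+ neurons spanned 1.23 (edgeR adjusted p = 0.0238), highest in NZO/HlLtJ at 7.18 CPM ± 2.12.

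Among transporters, Slc29a1, the nucleoside carrier of the Slc29a4 family, was highest in PWK/PhJ in Drd1+ neurons, at 22.9 CPM ± 3.21 (edgeR adjusted p = 4.55e-09). WSB/EiJ was close, at 21.1 CPM ± 1.35, and CAST/EiJ had 7.42 CPM ± 0.837. Slc29a1 was highest in PWK/PhJ in Drd2+ neurons too, at 17.9 CPM ± 5.22 (edgeR adjusted p = 2.49e-07). Slc16a10, an aromatic amino acid carrier, spanned 6.20 in oligodendrocytes (edgeR adjusted p = 5.14e-22), with 38.8 to 72.4 CPM in the 4 CAST/EiJ mice and at most 6.85 CPM in any mouse of the other 7 strains. In Drd1+ neurons Slc16a10 spanned 2.31 (edgeR adjusted p = 3.83e-06) and in Drd2+ neurons 2.01 (edgeR adjusted p = 1.34e-05), with PWK/PhJ the lowest in both. In macrophages it spanned 1.61, highest in NOD/ShiLtJ at 154 CPM ± 24.4 (edgeR adjusted p = 0.00174). The NOD/ShiLtJ mice again were those that all held Y transcripts.

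Among genes of synthesis, Pts, an enzyme of the tetrahydrobiopterin cofactor, was highest in PWK/PhJ Drd2+ neurons, at 18.3 CPM ± 3.17 against 6.68 CPM ± 1.44 in 129S1/SvImJ (edgeR adjusted p = 0.000158). Qdpr, which recycles that cofactor, was highest in oligodendrocytes at 302 CPM pooled and had strain means there of 446 CPM ± 61.2 (NZO/HlLtJ) down to 185 CPM ± 39.4 (WSB/EiJ) (edgeR adjusted p = 2.34e-12). Endothelium, the cluster with the most Ddc, was also highest for the cofactor enzymes Gch1 (50.6 CPM pooled) and Spr (35.1 CPM), but not for Pts (16.9 CPM, against 74.0 CPM in macrophages), Qdpr or Pcbd1 (1 count). It was also highest for the amino acid carrier Slc7a5 (395 CPM). Th was highest in Unknown_2 at 9.87 CPM from 2 counts and next in Nxph1+ interneurons at 7.10 CPM from 40 counts.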

How the data were processed

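The deposited files were 4 matrices of raw UMI counts per gene and nucleus, 1 per batch, a table of nuclei and a list of chromatin peaks. Per the submitters' processing notes, reads were handled with bcl2fastq 2.20.0.422 and Cell Ranger ARC 2.0.0 on mm10, so all 8 strains were counted against 1 reference genome; the part of this in the strain differences was not tested. The deposited table gave each nucleus its strain, droplet type, quality filter, DoubletFinder call and cluster. Nuclei were used where the table kept and clustered them and RNA and chromatin named the same strain, and no further doublet caller was run.

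Counts were summed per mouse and cluster in libraries of at least 10 nuclei. Strains were tested with edgeR 4.0.16's quasi-likelihood test (R 4.3.3, robust, TMM scaling, filterByExpr by strain, batch as a block) in the 9 clusters with at least 3 mice of every strain, with Benjamini-Hochberg adjustment over all tested genes. The batches pair the mice by design, since each pooled 1 mouse of every strain. DESeq2 1.42.0 was an alternative. Other steps used Python 3.11.15 with scipy 1.17.1. The scripts were tested on simulated data. Shares with thinning used 1000 UMIs per nucleus, leaving out shallower nuclei, and permutation tests used 100000 resamples. Intervals are 95% and cover counting error only. The 6 genes and the lists of markers and pathway genes were chosen with earlier results of these data known. Pathway genes were named where the strain term was called and fitted strain means spanned at least 1 on the log2 scale, at most 5 per cluster by F statistic; 1 such result is not reported here. Like genes were the 3 with the highest correlation among genes with at least 10 CPM in a cluster. A term for Y transcripts and fits without NOD/ShiLtJ mice were chosen after seeing the data.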

Additional observations from a re-analysis of the deposited data

Results flagged for a closer look

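In 114 groups of 4 mice of 1 strain, the mouse at either end was compared with the others by Dixon's ratio at its 95% critical value, and 3 groups passed it, where chance flags about 1 in 20 groups. Ddc in Drd2+ neurons of the NOD/ShiLtJ mouse of batch 1 stood at 0.992 CPM, below 1.81 to 1.98 CPM in the other 3 mice. Slc22a3 in Drd2+ neurons of the PWK/PhJ mouse of batch 4 stood at 17.0 CPM, below 30.0 to 31.5 CPM in the other 3. Slc22a3 in the Drd1+ neuron_2 cluster of the WSB/EiJ mouse of batch 1 stood at 58.6 CPM, above 22.4 to 27.3 CPM in the other 3.

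The strain by cluster term of Ddc between Drd1+ neurons and oligodendrocytes had an edgeR adjusted p of 0.00192, and of 0.0928 without batch 2 and 0.0731 without batch 4. Ddc lies below the filter on low counts in Drd1+ neurons, so nothing is read from it.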

How the results depend on the processing

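Leaving out 1 batch at a time gave 5 to 8 strain terms of members called, against 7, and 7 to 11 contrasts of a strain with the other 7, against 12, with 7 called without batch 3. It gave 25 to 33 strain pairs in Drd1+ neurons, Drd2+ neurons and astrocytes, against 41, with 25 called without batch 2 and without batch 3. For the strain by cluster term it gave 0 to 1 calls, against 1, with 0 without batch 2 and without batch 4, and for the pathway list 16 to 20 calls, against 22. Without the replicate block there were 7 strain terms, 10 contrasts, 34 pairs, 1 strain by cluster call and 18 pathway calls. Without the filter on low counts there were 9, 18, 52, 1 and 33. DESeq2 called 8 strain terms and 23 pathway genes. The fit without the filter tested the strain term in 54 combinations of member and cluster, against 15. The shares of all genes called under the alternatives are not given here. A rise or fall in these counts is therefore not read as a result about the members or the list. Thinning each nucleus to 1000 UMIs lowered the shares of nuclei with a UMI to 16.9% for Maoa and 10.3% for Ddc in endothelium, 6.52% for Maob in astrocytes, 3.82% for Slc22a3 in Drd1+ neuron_2, and 0.856% for Slc29a4 and 1.59% for Slc18a2 in the Unknown cluster. The Maoa share in endothelium ran from 37.8% to 44.0% over the batches left out. None of the 12 called contrasts of a strain with the other 7 changed sign under the 9 alternatives run for each. The other results compared over alternatives are spans, F statistics, counts, levels and shares, which have no sign to change. Whether the highest or lowest strain changed was not recorded. With libraries of at least 20 nuclei the Polydendrocyte/Oligodendrocyte cluster gave no fit. A term for sex was not run, since the deposited table used here gives none. Low counts limit Slc29a4 in every cluster and Maob and Ddc in projection neurons.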
